A study of Ananas comosus with 8 samples.

Results

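The genes that dominated the transcriptome of the photosynthetic pineapple leaf tip were described across 2 tissues of the leaf, the green tip and the white base. They were chosen by their deposited FPKM values (fragments scaled to transcript length and to the depth of the library), with a level of 1000 FPKM or more in the green tip and a level above 0 in the white base. This gave 102 genes of the 27024 in the matrix, and no gene at or above 1000 FPKM in the green tip was listed at 0 in the white base. The plants were pineapple (Ananas comosus var. comosus) of cultivar MD-2, and both tissues came from the 'D' leaf. The labels name 2 RNA-seq libraries of green tip and 2 of white base, with no treatment and no time of day. The Methods give 2 RNA-seq libraries for the 10 am collection alone. The matrix holds 1 value for each tissue, so levels are given as the authors made them, with no spread between libraries and no test. Bisulfite sequencing libraries of the same tissues were not analysed here.

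Pineapple is a CAM plant, which takes up carbon dioxide at night, stores it as malate in the vacuole and releases it by day behind closed stomata. The green tip is the mature, photosynthetic part of the leaf, whereas the white base is non-photosynthetic and lies nearest to the growing region of a monocot leaf. In green tissue of plants in general, nuclear genes for chloroplast proteins, such as light-harvesting chlorophyll-binding proteins and the small subunit of Rubisco, are known for very abundant mRNAs. The matrix pairs no identifier with a gene name, and none of its identifiers matched the reference table, so it is not known here which of the 102 genes encode such proteins. The tissue labels were checked on the 5 PPDK and beta carbonic anhydrase genes that the study names, of which 4 were higher by 2-fold or more in the green tip and none in the white base. With TPM rescaling 3 were, and Aco002732 fell within 2-fold, at a log2 ratio of 0.44. These 5 genes were picked from a list of 38 carbon fixation genes that was less one-sided. Of its 34 genes compared, 11 were higher by 2-fold or more in the green tip, against 6 in the white base. Of all 18372 genes compared in deposited FPKM, 17.2% were that much higher in the green tip, against 20.7% in the white base. The PPDK gene Aco024818, whose enzyme regenerates phosphoenolpyruvate, had 396 FPKM in the green tip, against 5.81 FPKM in the white base. The beta carbonic anhydrase gene Aco006181, of a family that hydrates carbon dioxide, had 136 FPKM in the green tip, against 0.485 FPKM in the white base. The PPDK gene Aco014488, in contrast, was low in both tissues and within 2-fold, with 5.81 FPKM in the green tip, against 3.57 FPKM in the white base. In bulk leaf segments, fewer cells of a type and less RNA per cell cannot be told apart.

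The 102 genes held 50.2% of the summed FPKM of the green tip and 9.86% of that of the white base. Their FPKM summed to 570660 in the green tip, against 60247 in the white base, or 9.47 times as much. All other 26922 genes summed to 565783 in the green tip, against 550994 in the white base, or 1.03 times as much. The whole matrix summed to 1136442 in the green tip, against 611241 in the white base, so that the tissues differed by 525201 FPKM, green tip minus white base. The 102 genes accounted for 510413 of this difference, or 97.2%, and all other genes for 14789. Because FPKM are divided by transcript length, these are shares of length-scaled abundance and not of reads, and a sum of FPKM is not fixed by depth. The share in the green tip follows from the way the genes were chosen and is given as a description. The choice also raises the ratio of 9.47 and the 97.2% and lowers the ratio of 1.03, so these are descriptions too. They also hold only for the columns as deposited, since scaling both to an equal sum (TPM) leaves no difference between the sums. As shares, all other genes held 49.8% of the green tip sum, against 90.1% of the white base sum. With TPM, 8.79% of all genes compared were higher by 2-fold or more in the green tip, against 42.1% in the white base. The 14789 is a net value. Of 18270 other genes with a mean over 0.5 FPKM, 3086 were higher by 2-fold or more in the green tip, against 3809 in the white base.

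**Figure D1:**
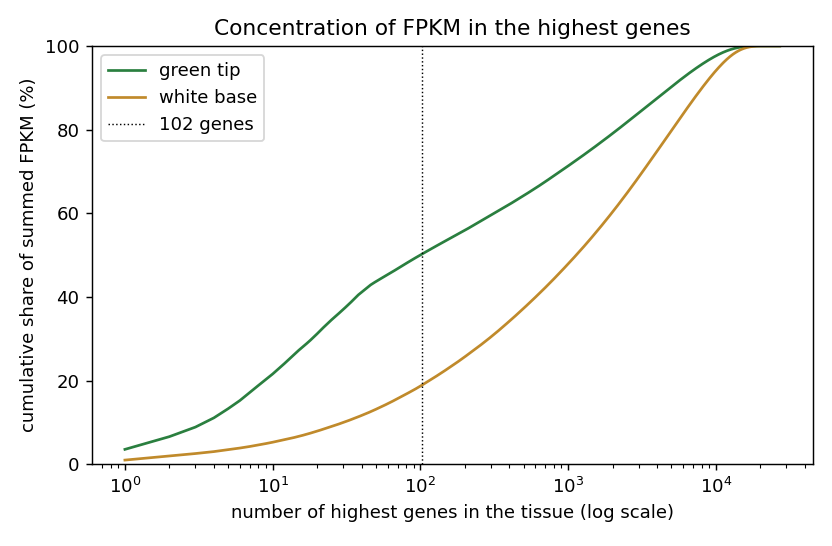
Cumulative share of the summed FPKM (y axis, percent) against the number of highest genes in a tissue (x axis, log scale), for green tip and white base, with genes ranked within each tissue. At the dotted line, the 102 highest genes of the tissue held 50.2% in the green tip, against 18.9% in the white base.

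The green tip was also the more concentrated tissue when each tissue was ranked by its own genes. Its highest gene held 3.56% of the summed FPKM, its 10 highest 21.6% and its 50 highest 43.7%. In the white base the highest gene held 0.998%, the 10 highest 5.27% and the 50 highest 13.1%. The summed FPKM reached 50% with the 100 highest genes in the green tip and with the 1133 highest genes in the white base. An equally long list of the 102 genes highest in the white base held 20.5% of the green tip sum and 18.9% of the white base sum. This list shared 30 genes with the 102 green tip genes, or 29.4% of each list, and these 30 held 18.7% of the green tip sum and 7.33% of the white base sum. The other 72 genes of the white base list held 1.75% of the green tip sum and 11.6% of the white base sum.

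Within the 102 genes, a small number carried most of the share. The 15 genes at 10000 FPKM or more held 27.2% of the green tip sum and 1.69% of the white base sum. The 19 genes between 5000 and 10000 FPKM held 11.6% in the green tip, against 1.12% in the white base, and the 18 between 2000 and 5000 FPKM held 5.24% in the green tip, against 1.04% in the white base. The 50 genes between 1000 and 2000 FPKM, the lowest band in the green tip, held 6.17% of the green tip sum and 6.02% of the white base sum. This band alone therefore had about the same share in both tissues, and it held more of the white base sum than the other 52 genes together, which held 44.0% of the green tip sum and 3.84% of the white base sum.

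**Figure D2:**
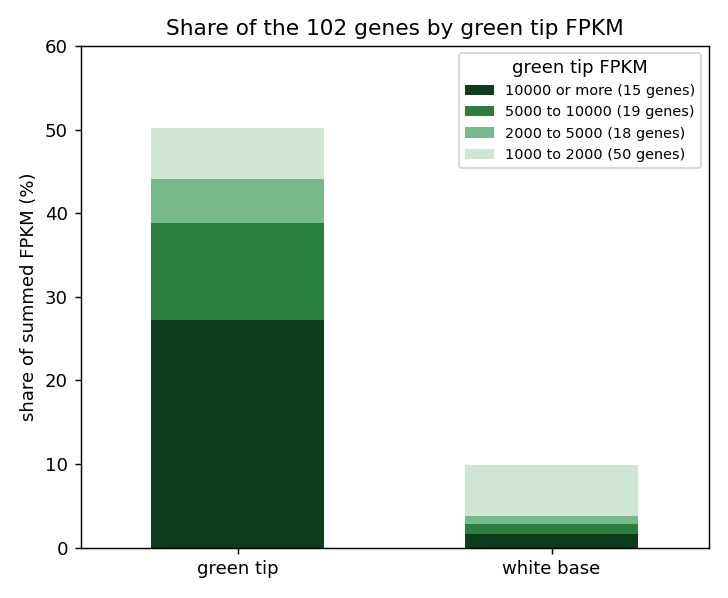
Share of the summed FPKM held by the 102 genes in green tip and white base (stacked bars, percent), split by the FPKM of each gene in the green tip. The 15 genes at 10000 FPKM or more made up 27.2% in the green tip, against 1.69% in the white base, whereas the 50 genes between 1000 and 2000 FPKM made up 6.17% in the green tip, against 6.02% in the white base.

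The highest gene of the green tip, Aco026888, had 40433 FPKM in the green tip, against 1616 FPKM in the white base, where it ranked 15. Aco009983 followed with 34615 FPKM in the green tip, against 241 FPKM in the white base, a ratio of 144, which was the largest among the 10 highest genes. Aco004503 had 25945 FPKM in the green tip, against 1963 FPKM in the white base, and its ratio of 13.2 was the smallest among the 15 highest genes. These genes show that neighbouring ranks in the green tip lay far apart in the white base. Aco005358 had 25075 FPKM in the green tip, against 846 FPKM in the white base. Aco002475 had 25029 FPKM in the green tip, against 368 FPKM in the white base. Aco005359 had 22111 FPKM in the green tip, against 481 FPKM in the white base. No order can be read from such close green tip levels without replicates, since the spread between libraries is not known. Aco001182 had 21975 FPKM in the green tip, against 1153 FPKM in the white base. Aco004816 had 18893 FPKM in the green tip, against 744 FPKM in the white base. Aco030457 had 16403 FPKM in the green tip, against 178 FPKM in the white base, and Aco001089 had 14819 FPKM in the green tip, against 602 FPKM in the white base. In the white base the 10 genes ranked between 10 and 488, and 3 of them were above 1000 FPKM there too.

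**Figure D3:**
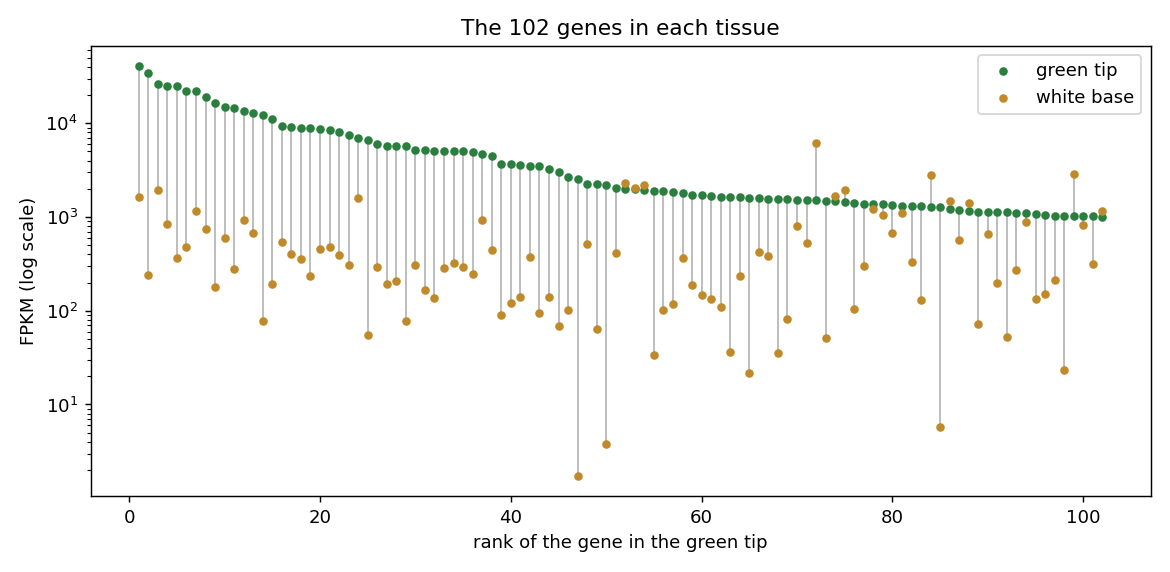
FPKM of each of the 102 genes (y axis, log scale) in green tip and white base, ordered by rank in the green tip (x axis), with a grey line that joins the values of a gene. In deposited FPKM, every gene of the first 15 ranks was at least 13.2 times higher in the green tip, and the 11 genes that were higher in the white base all lie at rank 52 or beyond.

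In the white base most of the 102 genes were also among the abundant transcripts. Their white base level had a median of 302 FPKM, with quartiles of 132 and 679 FPKM, beside a median of 4.43 FPKM over all genes of the matrix. The median rank in the white base was 232 of 27024. Of the 102 genes, 56 were among the 270 highest genes of the white base and 94 among the 2702 highest, and 2 lay under the median of all genes. By level, 18 genes were at 1000 FPKM or more in the white base, 65 between 100 and 1000 FPKM, 16 between 10 and 100 FPKM and 3 below 10 FPKM. In all, 35 genes of the matrix reached 1000 FPKM in the white base, of which 17 were not among the 102. Across the 102 genes the level in the green tip was hardly related to that in the white base, with a Pearson correlation of 0.126 on log2 FPKM and a Spearman correlation of 0.035. Both are descriptions over genes of the same libraries, and genes are no independent replicates. The choice at 1000 FPKM narrows the range on the green tip side.

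On log2(FPKM + 1), 83 of the 102 genes were higher by 2-fold or more in the green tip, 16 were within 2-fold and 3 were higher by 2-fold or more in the white base. Among 18372 genes that averaged over 0.5 FPKM in both tissues together, 17.2% were higher by 2-fold or more in the green tip, against 20.7% in the white base. The choice on the green tip value raises the first count for the 102 genes, so nothing is read from the difference. Their median log2 ratio, green tip over white base, was 4.08, against -0.0095 over all of the 18372 genes, and the ratio of FPKM had a median of 17.0. Scaling both columns to an equal sum (TPM) moved the median log2 ratio of all genes to -0.81 and left 80 of the 102 genes on the green tip side of 2-fold and put 10 on the white base side. Quantile normalization gave 77 on the green tip side and 14 on the white base side, with a median log2 ratio of 0.13 over all genes. By band, the ratio had a median of 29.6 at 10000 FPKM or more, 23.0 between 5000 and 10000 FPKM, 24.7 between 2000 and 5000 FPKM and 4.37 between 1000 and 2000 FPKM. Above 2000 FPKM it therefore showed no steady change with level, and the green tip value that chose the genes is its numerator. Its range was 13.2 to 155 in the highest band and 0.246 to 220 in the lowest, and the band between 2000 and 5000 FPKM held both 0.882 and 1458. In that lowest band 32 genes were higher by 2-fold or more in the green tip, 15 were within 2-fold and 3 were higher by 2-fold or more in the white base.

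**Figure D4:**
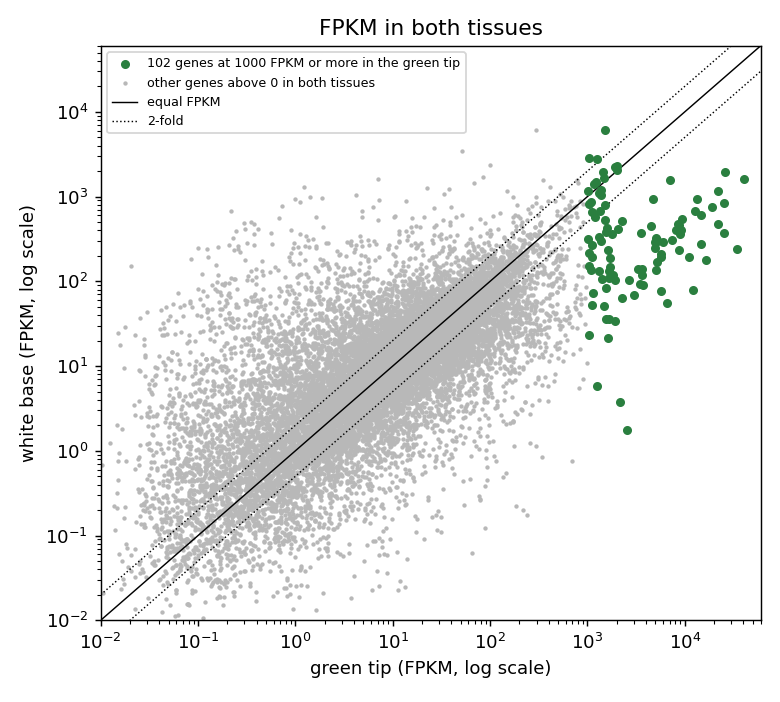
FPKM in the green tip (x axis, log scale) against FPKM in the white base (y axis, log scale) for genes above 0 in both tissues, with the 102 genes in green, all other genes in grey, and lines of equal FPKM and of a 2-fold difference. Of the 102 genes, 83 lie below the 2-fold lines, 16 between them and 3 above, counted on log2(FPKM + 1).

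A smaller set of the 102 genes had similar levels in both tissues as deposited. The 16 genes within 2-fold lay between 1006 and 2010.2 FPKM in the green tip and between 664 and 2279 FPKM in the white base, and held 1.97% of the green tip sum and 3.51% of the white base sum. Aco030281 had 1994 FPKM in the green tip, against 2055 FPKM in the white base, the closest match of all. Aco014969 had 2010.2 FPKM in the green tip, against 2279 FPKM in the white base. Aco009712 had 1924 FPKM in the green tip, against 2208 FPKM in the white base. These genes ranked 9, 7 and 8 in the white base. Aco010565 had 1480 FPKM in the green tip, against 1675 FPKM in the white base, and Aco016147 had 1431 FPKM in the green tip, against 1945 FPKM in the white base. After TPM rescaling Aco014969, Aco009712, Aco010565 and Aco016147 passed 2-fold on the white base side, at log2 ratios of -1.08, -1.09, -1.07 and -1.34, and Aco030281 did so with quantile normalization, at -2.16.

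Aco005847 was the highest gene of the white base, with 1501 FPKM in the green tip, against 6098 FPKM in the white base. Aco001449 had 1033 FPKM in the green tip, against 2853 FPKM in the white base. Aco013510 had 1266 FPKM in the green tip, against 2798 FPKM in the white base. These 3 were the genes higher by 2-fold or more in the white base with FPKM as deposited, and they ranked 1, 4 and 5 there. Of the 10 highest genes of the white base, 7 were among the 102. Of the 10 genes with the highest white base level among the 102, only Aco004503 and Aco026888 were higher by 2-fold or more in the green tip, and with quantile normalization Aco004503 was within 2-fold, at a log2 ratio of 0.81.

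At the other end, 3 of the 102 genes were below 10 FPKM in the white base. Aco014602 had 2532 FPKM in the green tip, against 1.74 FPKM in the white base, where it ranked 15891. Its ratio of 1458 was the largest of the 102 genes. Aco021598 had 2171 FPKM in the green tip, against 3.81 FPKM in the white base, a ratio of 570. Aco003139 had 1266 FPKM in the green tip, against 5.75 FPKM in the white base, so its ratio was 220. The next lowest genes of the white base were Aco017282, with 1614 FPKM in the green tip, against 21.5 FPKM in the white base, and Aco000052, with 1034 FPKM in the green tip, against 23.0 FPKM in the white base. A ratio over 100 was found in 6 genes, these 3 together with Aco009983, Aco005951 and Aco005952, and a ratio over 10 in 62. None of the 3 genes was among the 15 highest of the green tip, so the 3 largest ratios did not fall on the highest levels.

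Of the 102 genes, 14 lay in runs of consecutive identifiers, and these were 7 pairs, with no run longer than 2. The other 88 genes had no gene of the set beside them in identifier number. The share in runs was 13.7% for the 102 genes, whereas 175 of the 26922 other genes, or 0.650%, had 1 of the 102 genes at the next identifier on either side. The equally long list of the genes highest in the white base had 1 pair, Aco019012 and Aco019013, or 1.96% of its genes. All 102 genes had a gene in the matrix at an adjacent identifier, as did 97.1% of all genes. The order of identifiers was not matched to chromosome positions here. The pairs held 11.5% of the green tip sum and 0.793% of the white base sum, and 5 of the 15 genes at 10000 FPKM or more belonged to a pair. The sequences of paired genes were not compared, so reads shared between the genes of a pair cannot be told apart from separate expression. The Methods state that uniquely mapped reads were kept after HISAT2, but it is not known whether those steps made this matrix.

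The pair Aco005358 and Aco005359, already given among the 10 highest genes, held 4.15% of the green tip sum and 0.217% of the white base sum, the largest share of a pair in the green tip. The genes on both sides of it were far lower, the higher in the green tip being Aco005360 with 29.0 FPKM in the green tip, against 7.95 FPKM in the white base. Aco001181 had 9170 FPKM in the green tip, against 398 FPKM in the white base, beside 21975 and 1153 FPKM for Aco001182. Next to this pair, Aco001183 had 487 FPKM in the green tip, against 192 FPKM in the white base. The pair of Aco005951 and Aco005952 was the one with the largest ratios. Aco005951 had 12144 FPKM in the green tip, against 78.2 FPKM in the white base, and Aco005952 had 6643 FPKM in the green tip, against 55.5 FPKM in the white base. Neither flanking gene of this pair was above 7.04 FPKM in the green tip.

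Aco009131 had 11086 FPKM in the green tip, against 193 FPKM in the white base, and its partner Aco009130 had 5694 FPKM in the green tip, against 77.5 FPKM in the white base. Near them, Aco009134, which is also among the 102 genes, had 4999 FPKM in the green tip, against 294 FPKM in the white base. Between these genes Aco009132 had 206 FPKM in the green tip, against 31.4 FPKM in the white base. Aco009133, also between them, had 48.4 FPKM in the green tip, against 16.6 FPKM in the white base. Aco002227 had 5168 FPKM in the green tip, against 168 FPKM in the white base, beside 1491 FPKM in the green tip, against 51.3 FPKM in the white base for Aco002228. Aco017388 had 1912 FPKM in the green tip, against 103 FPKM in the white base, and Aco017389 had 1838 FPKM in the green tip, against 119 FPKM in the white base, the closest pair in green tip level. Aco019013 had 4753 FPKM in the green tip, against 930 FPKM in the white base, and Aco019014 had 1126 FPKM in the green tip, against 196 FPKM in the white base. With quantile normalization Aco019013 was within 2-fold, at a log2 ratio of 0.27. Aco019012, just before this pair, had 482 FPKM in the green tip, against 668 FPKM in the white base. This difference was within 2-fold and, in deposited FPKM, opposite in direction to that of the pair.

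In deposited FPKM both genes of a pair lay close in their ratio of green tip to white base, but this did not hold for every pair with quantile normalization. With TPM and median-of-ratios scaling the ratios within a pair, taken on log2(value + 1), were 1.07 to 1.55 times apart. Both multiply a whole column alike and so could hardly change this. In deposited FPKM the larger ratio of a pair was 1.06 to 1.55 times the smaller. It was lowest for Aco002227 and Aco002228 (30.8 and 29.1) and highest for Aco005359 and Aco005358 (46.0 and 29.6). The higher green tip level of a pair was 1.04 to 4.22 times the lower. Between pairs the ratios were spread from 5.11 in Aco019013 to 155 in Aco005951. With quantile normalization, which does not scale all levels alike, the ratios within a pair, taken on log2(value + 1), were 1.07 to 3.05 times apart. They were farthest apart for Aco019013 and Aco019014, at log2 ratios of 0.27 and 1.87, and for Aco001181 and Aco001182, at 2.95 and 1.52. No test was made of these ratios, since the genes were chosen on the green tip value and each has 1 value per tissue.

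**Figure D5:**
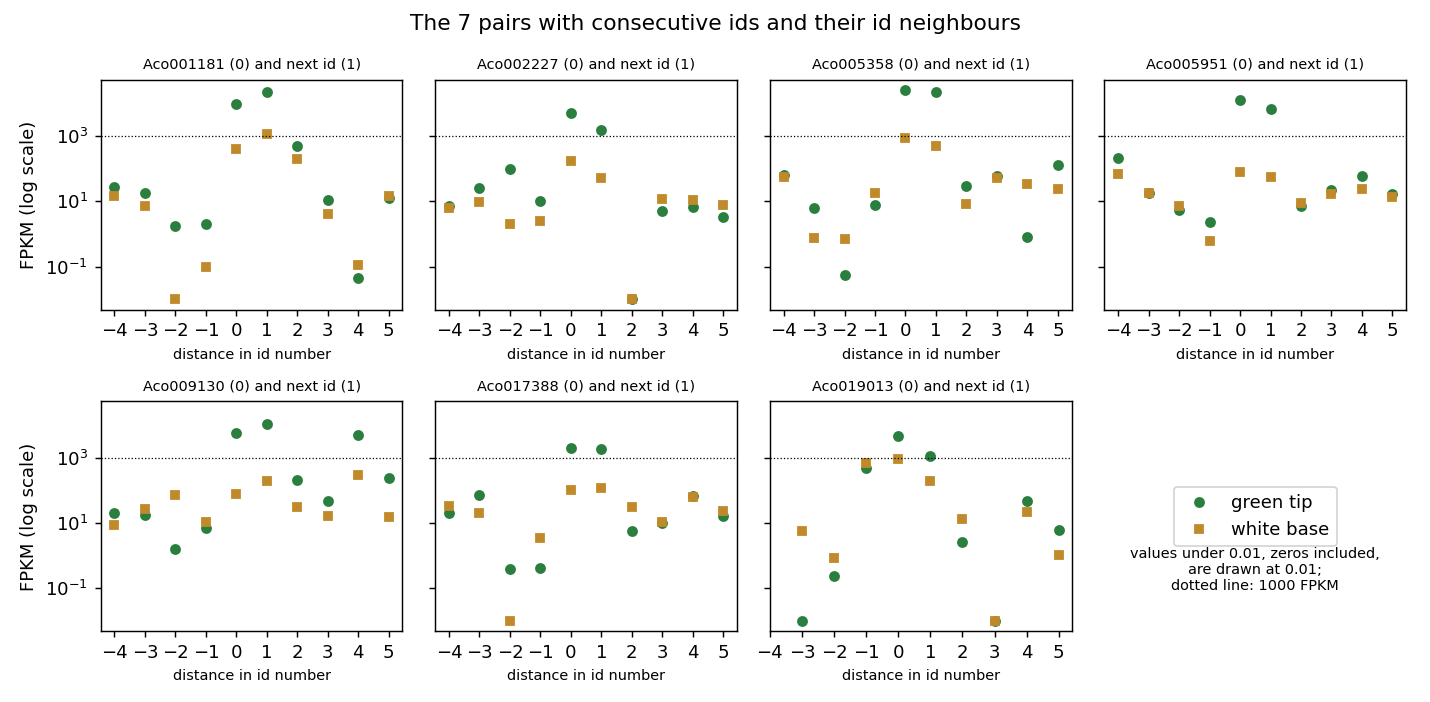
FPKM (y axis, log scale) in green tip and white base for the 7 pairs of genes with consecutive identifiers and for the genes up to 4 identifiers away on either side (x axis, distance in identifier number from the first gene of the pair). In every panel both genes of the pair lie above 1000 FPKM in the green tip and the adjacent genes lie below it, the highest being Aco001183 with 487 FPKM in the green tip.

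The 102 genes were also looked up in 6 lists of genes that the study describes, 130 genes in all. Of the 130 listed genes 4 were among the 102, beside 102 of all 27024 genes of the matrix, and 98 of the 102 were in no list. The list of CAM related transporters and invertases had 1 of its 18 genes among the 102, Aco008167, with 4524 FPKM in the green tip, against 450.1 FPKM in the white base. The list of glycolysis and gluconeogenesis, the pathways that break down and rebuild hexoses beside the CAM cycle, had 3 of its 18 genes among the 102. Aco018596 had 1556 FPKM in the green tip, against 385 FPKM in the white base. Aco000731 had 1548 FPKM in the green tip, against 82.4 FPKM in the white base, and Aco024201 had 1305 FPKM in the green tip, against 330.3 FPKM in the white base. All 4 genes were higher by 2-fold or more in the green tip, and over their whole lists 8 of 17 tested genes of the first and 12 of 18 of the second were so, against 2 and 0 higher by 2-fold or more in the white base. Over all genes these shares were 17.2% on the green tip side and 20.7% on the white base side. The lists are those that the study discusses for these tissues, some of them taken from earlier work, and their counts are a description and not independent evidence of a direction.

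None of the 38 carbon fixation genes, 41 DNA methylation pathway genes, 10 circadian clock genes and 5 MADS-box genes was among the 102. Since the 102 are a small part of the 27024 genes of the matrix, absence from lists this short is no result about their genes. Of the 34 carbon fixation genes compared, 11 were higher by 2-fold or more in the green tip, against 6 in the white base. Of 39 DNA methylation pathway genes 1 was on the green tip side and 6 on the white base side, of 10 circadian clock genes 5 and 0, and of 5 MADS-box genes 1 and 0. Beside these counts, 17.2% of all genes compared were on the green tip side and 20.7% on the white base side. No direction is read from lists this short. The highest carbon fixation gene in the green tip, the malate dehydrogenase gene Aco013935, had 845 FPKM in the green tip, against 251 FPKM in the white base. Malate dehydrogenase reduces oxaloacetate to the malate that CAM plants store. The whole carbon fixation list held 0.332% of the green tip sum and 0.241% of the white base sum, less in the green tip than Aco008167 alone, which held 0.398% there. The highest circadian clock gene, Aco013228, had 925 FPKM in the green tip, against 153 FPKM in the white base, and so lay just under the limit.

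At the limit of 1000 FPKM, the 3 genes just inside were Aco017445, with 1006 FPKM in the green tip, against 1161 FPKM in the white base, Aco002941, with 1021 and 314 FPKM, and Aco007419, with 1028 and 816 FPKM. The 3 genes just outside were Aco015799, with 993 FPKM in the green tip, against 10.8 FPKM in the white base, Aco031766, with 968 and 86.8 FPKM, and Aco014493, with 953 and 31.5 FPKM. All 3 genes just outside had lower white base levels than the 3 inside. With TPM rescaling Aco017445 passed 2-fold on the white base side, at a log2 ratio of -1.10, and Aco002941, which was on the green tip side, fell within 2-fold, at a log2 ratio of 0.80.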

How the data were processed

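The authors deposited 1 matrix of FPKM values with a column for the green tip, a column for the white base and their mean. The Methods name Trimmomatic, HISAT2 and StringTie, whereas the submitters' processing notes name TopHat2 2.1.0 and Cuffdiff 2.2.1. Which of these made the matrix, the genome build and the way in which 2 libraries gave 1 value are not given in the sources used here. The matrix does not repeat the FPKM printed in the paper for Aco018391. It has 114 FPKM in the green tip, against 79.9 FPKM in the white base, whereas the paper lists this gene lower in green than in white tissue at every time. The other DNA methylation pathway genes that the paper prints with FPKM were not compared in this way, so how far the disagreement extends is not given here. FPKM values carry no read depth. The supplement of the paper lists mapped reads for each RNA-seq library, but which libraries made the matrix is not stated. No interval or detection limit was therefore calculated.

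Genes were chosen as stated, and consecutive identifiers are those whose numbers differ by 1. Log2 ratios used a pseudocount of 1, which understates the change of low genes, and genes with a mean over 0.5 FPKM were compared with 2-fold. With 1 value per tissue no statistical test was possible. The genes and lists were chosen with earlier results of these data known, and the bands of FPKM after seeing the values. Named genes were those with the 10 highest levels in either tissue, the 5 lowest in the white base, those in pairs, in lists or next to the limit. Aco005360, Aco001183, Aco009132, Aco009133, Aco009134, Aco019012, Aco013935 and Aco013228 were added after their values were seen. So were Aco024818, Aco014488, Aco002732 and Aco006181 for the check of the labels, and Aco018391 for the comparison with the paper. Alternatives were other limits, pseudocounts, filters, scalings and identifier gaps. The scripts ran in Python 3.11.15 (numpy 2.4.6, matplotlib 3.10.9, pandas 2.3.3) and were tested on simulated data.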

Additional observations from a re-analysis of the deposited data

How the results depend on the processing

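A change of over 1.5 times in a count, share or level was taken as a shift. No paired analysis was possible because each tissue has a single column, so no library could be left out in turn either. With a limit of 500 FPKM there were 196 genes, with a median of 195 FPKM in the white base against 302 FPKM. With a limit of 2000 FPKM there were 52 genes, which held 3.84% of the white base sum against 9.86%, and 8 of them were in pairs against 14. The share of the green tip sum stayed between 44.0% and 55.8% under all limits tried and was 48.4% without the highest gene. TPM rescaling multiplies the white base alike for all genes, so the median became 494. The number of genes higher by 2-fold or more in the white base, 3 as deposited, was 10 after TPM rescaling and 14 with quantile normalization, and 3 under pseudocount, filters, median-of-ratios scaling and scaling to the sum of all other genes. Scaling to that sum moved the log2 ratio by only -0.04, against -0.89 for TPM. Of the 44 genes whose log2 ratios were followed, 35 kept their side of 2-fold under all 7 alternatives, and none that passed 2-fold changed direction. Which of the libraries in the paper, and so which depth, lie behind the FPKM values is not stated, and this limits every level.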

Other observations

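The 175 genes at an identifier next to 1 of the 102 genes, without being among them, had a median of 6.09 FPKM in the green tip, against 6.29 FPKM in the white base. Over all genes of the matrix the medians were 3.14 FPKM in the green tip, against 4.43 FPKM in the white base. Of these neighbours, 17 were at 100 FPKM or more in the green tip. Among all 27024 genes of the matrix, the gene ranked 1247 in the green tip had 99.6 FPKM there. Of the 139 with a mean over 0.5 FPKM, 36 were higher by 2-fold or more in the green tip, or 25.9%, beside 17.2% of all genes tested. No test was made of this difference, and overlap between adjacent genes was not examined.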
